A study of Mus musculus with 84 samples.

Results

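The livers described here came from pregnant female mice of the recombinant inbred line BXD100/RwwJ that were fed the chlorinated dioxin TCDD (its full name is 2,3,7,8-tetrachlorodibenzo-p-dioxin), and they were set against livers of the same line fed the vehicle alone. The TCDD group holds 3 libraries and the vehicle group 3, chosen by their strain and treatment labels, out of 84 libraries of 14 strains in the series. TCDD was given by mouth at 0.1 µg/kg per day in peanut butter, for 10 days, and the vehicle group received peanut butter without TCDD. Per the labels, mice entered the study at an age of 6 to 8 weeks, dosing began once a mating plug was seen, and all mice that were kept were pregnant. What limits the groups as a model is that all mice are 1 inbred line, female and pregnant, that 1 dose and 1 end point were sampled, and that the labels do not say whether each library is 1 mouse. The p-values below therefore measure the spread between libraries.

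TCDD is a persistent ligand of the aryl hydrocarbon receptor (AHR), a transcription factor that waits in the cytoplasm bound to HSP90 and p23. With a ligand bound it moves to the nucleus, pairs with ARNT and binds response elements with the core GCGTG. In hepatocytes the genes it is best known for inducing are Cyp1a1 and Cyp1a2, monooxygenases that oxidise planar aromatic compounds, together with enzymes that conjugate or reduce their products. BXD lines descend from crosses of C57BL/6J and DBA/2J mice, parents known for Ahr alleles of different ligand affinity. Which allele the BXD100/RwwJ mice carry was not analysed here.

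The 6 libraries held 13821083 to 16787452 counts assigned to genes. Of the 16195 genes tested, none of 9 measured hepatocyte markers was called, and those markers summed to 75756 to 103450 CPM (counts scaled to a common total of gene counts in every library). Markers of muscle, adrenal cortex, pancreas and lymphocytes, tissues and cells that a liver sample can carry along, summed to at most 31.9 CPM in each library, and several defining ones (Myh1, Myh2, Myh4, Cyp11b1, Cyp11b2, Cpa1, Pnlip) were at 0 in all 6. TCDD replicate 3 stood apart within its group. On the leading axis of variation over 9975 genes, which held 50.0% of the variance, it lay at 35.5, against -25.8 and -10.8 for the other 2 TCDD libraries and -11.7 to 7.06 for the vehicle libraries. Its sinusoidal endothelium markers summed to 352 CPM, against 138.6 and 123 CPM in the other TCDD libraries and 258, 204 and 145.5 CPM in the vehicle libraries. Its level of the nuclear RNA Malat1 was 367 CPM, against 1486 and 982 CPM in the other TCDD libraries and 544, 529 and 1175 CPM in vehicle livers. The part of these differences in the results was not tested, and some of the results are also given without this library. In bulk tissue, fewer cells of a type and less RNA per cell cannot be told apart.

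In BXD100/RwwJ liver 5 genes rose with TCDD and none fell, at an adjusted p below 0.05 in edgeR's quasi-likelihood test. They were Cyp1a1, Cyp1a2, Nptx1, Slc46a3 and Htatip2, and they made up 0.0309% of all genes tested. Without TCDD replicate 3 there were 3 calls higher and 1 lower. At an unadjusted p below 0.05, 1.19% of genes were higher and 0.951% lower, and the median log2 change over all genes was 0.0042. Together these were 346 of 16195 genes, fewer than evenly spread p-values would place below 0.05. A gene without a call in this fit is therefore not shown to be unchanged. All 3 TCDD libraries lay above all 3 vehicle libraries for 529 genes (3.27%), and all 3 lay below for 729 genes (4.5%).

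**Figure D1:**
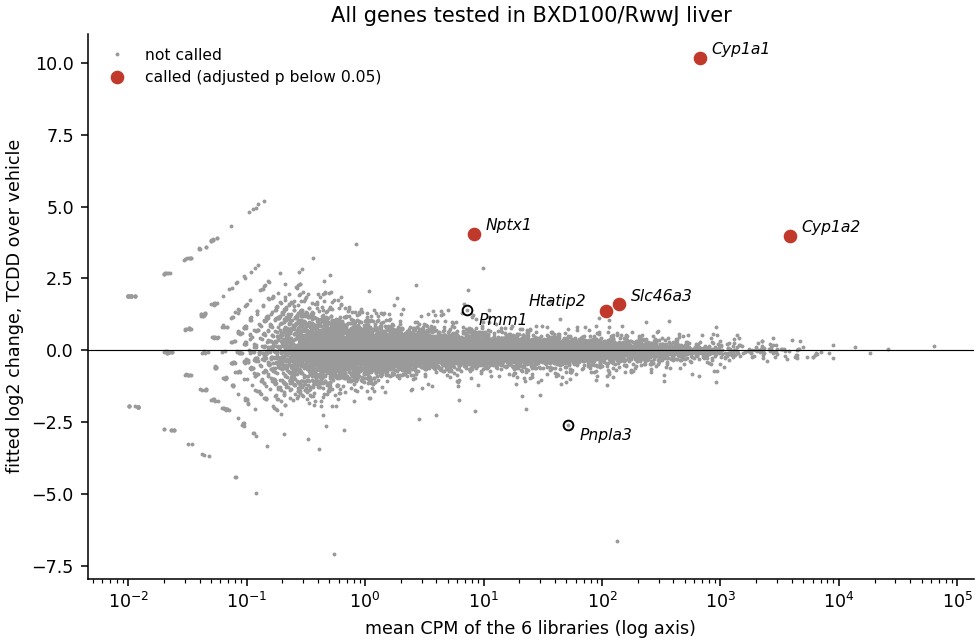
Fitted log2 change of TCDD over vehicle (vertical axis) against the mean CPM of the 6 BXD100/RwwJ libraries (horizontal log axis) for the genes tested; genes with no count in these libraries are not drawn. The 5 called genes are red, and Pmm1 and Pnpla3, which were not called, are ringed.

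Cyp1a1, the inducible monooxygenase that is the textbook readout of AHR activity, had 1245, 1273 and 1495 CPM in TCDD livers, against 1.74, 0.825 and 1.03 CPM in vehicle livers. Every TCDD library was far above every vehicle library, and within each group the libraries were close together on this scale. Its counts were 20906, 18750 and 23718 with TCDD, against 24, 12 and 17 with vehicle, so the vehicle level rests on few reads. The fitted log2 change was 10.15 ± 1.11 (SE; adjusted p = 1.6e-08, edgeR).

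Cyp1a2, the related monooxygenase that liver makes also without an inducer, had 6605, 7445 and 7618 CPM in TCDD livers, against 559, 412 and 433 CPM in vehicle livers. Its mean was 7223 ± 542 CPM with TCDD and 468 ± 79.4 CPM with vehicle (SD, n = 3 each), a ratio of 15.4. The log2 change was 3.96 ± 0.49 (SE; adjusted p = 2.36e-07, edgeR). The groups did not overlap, and the vehicle livers, unlike those of Cyp1a1, already held much of it. CPM are not corrected for transcript length and do not rank the 2 genes.

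Nptx1, which encodes neuronal pentraxin 1, a secreted protein known from synapses, had 8.52, 13.6 and 24.7 CPM in TCDD livers, against 0.868, 1.03 and 1.03 CPM in vehicle livers. The TCDD libraries were far apart (15.6 ± 8.27 CPM), with replicate 3 the highest, while the vehicle libraries were close together (0.977 ± 0.094 CPM; SD, n = 3 each). The log2 change was 4.04 ± 0.78 (SE; adjusted p = 0.00775, edgeR). The call was lost without TCDD replicate 3 (log2 3.45, adjusted p = 0.171) and without any 1 of the 3 vehicle libraries (adjusted p = 0.166 to 0.171).

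Slc46a3, a transporter of the lysosomal membrane, had 208, 197 and 222.2 CPM in TCDD livers, against 73.3, 70.3 and 65.6 CPM in vehicle livers. Both groups were tight, and the ratio of the means was 3.00. The log2 change was 1.60 ± 0.29 (SE; adjusted p = 0.00401, edgeR). The call was lost without TCDD replicate 3 (log2 1.48, adjusted p = 0.0579), without vehicle replicate 2 (adjusted p = 0.0744) and without vehicle replicate 3 (adjusted p = 0.12).

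Htatip2, an oxidoreductase-like protein first described as a partner of the HIV Tat protein, had 179, 155 and 131 CPM in TCDD livers, against 62.8, 61.1 and 57.8 CPM in vehicle livers. The lowest TCDD library was still above the highest vehicle library, and the ratio of the means was 2.56. The log2 change was 1.36 ± 0.24 (SE; adjusted p = 0.00344, edgeR). Without TCDD replicate 3 it was 1.41 and called (adjusted p = 0.0101), while the call was lost without vehicle replicate 2 (adjusted p = 0.0641) or vehicle replicate 3 (adjusted p = 0.107).

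**Figure D2:**
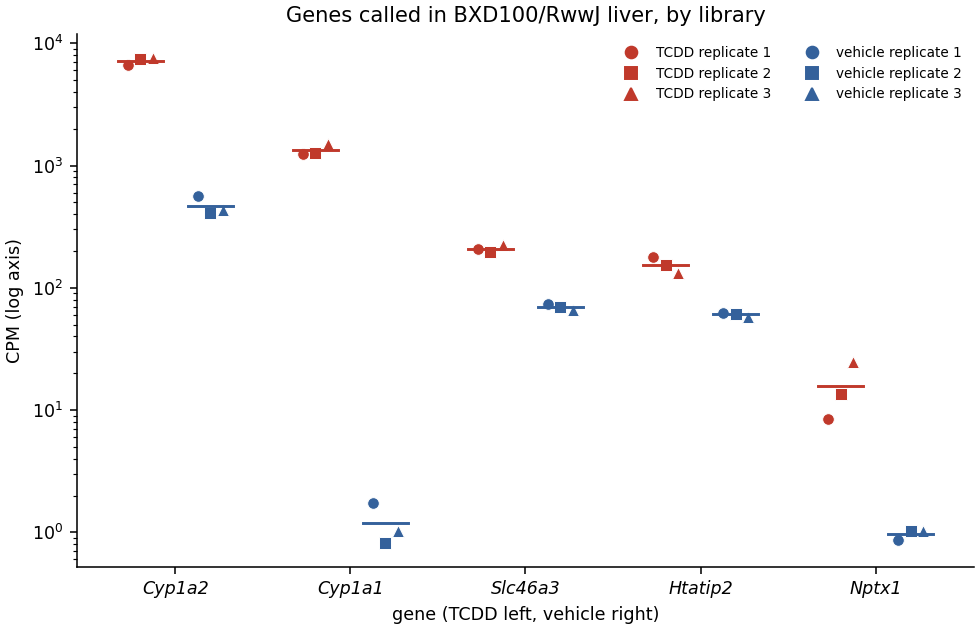
CPM (log axis) of the 5 called genes in each of the 6 BXD100/RwwJ libraries, TCDD in red on the left and vehicle in blue on the right, with symbols for replicates 1 to 3 and a bar at the group mean. The groups are separate for every gene, by the widest gap for Cyp1a1 (1338 against 1.20 CPM on average) and with the widest spread within TCDD for Nptx1.

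The upstream sequences of these genes are shown because AHR acts through response elements. Each is the 250 bases before the start that RefSeq gives for the gene on build GRCm38.p6, a later build than that of the count files (mm9), read 5′ to 3′ on the strand of the gene. The motif searched was the core GCGTG on both strands, so that it also reads CACGC, and it is in capitals. It occurred in 28.2% of the 32851 windows of this length in the RefSeq table, and the longer form TNGCGTG, which contains it, in 4.1%. Of the 5 called genes 4 had a window, and the core was in windows of 2 of them.
Cyp1a1, chr9:57697363-57697612, plus strand: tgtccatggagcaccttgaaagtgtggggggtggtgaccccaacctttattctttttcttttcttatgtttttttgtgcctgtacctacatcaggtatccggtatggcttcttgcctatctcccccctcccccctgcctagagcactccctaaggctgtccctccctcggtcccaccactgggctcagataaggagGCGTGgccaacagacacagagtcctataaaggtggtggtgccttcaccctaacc
Cyp1a2, chr9:57683656-57683905, minus strand: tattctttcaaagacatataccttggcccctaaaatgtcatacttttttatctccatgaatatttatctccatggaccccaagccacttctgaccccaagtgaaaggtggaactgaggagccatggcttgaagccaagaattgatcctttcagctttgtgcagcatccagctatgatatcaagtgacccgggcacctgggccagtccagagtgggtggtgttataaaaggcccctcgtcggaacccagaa
Slc46a3, chr5:147894816-147895065, minus strand: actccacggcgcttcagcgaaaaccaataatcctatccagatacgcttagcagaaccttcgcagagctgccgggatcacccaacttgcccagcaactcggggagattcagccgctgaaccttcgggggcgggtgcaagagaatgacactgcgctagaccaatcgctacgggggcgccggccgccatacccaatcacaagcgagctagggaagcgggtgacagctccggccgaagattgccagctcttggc
Htatip2, chr7:49758856-49759105, plus strand: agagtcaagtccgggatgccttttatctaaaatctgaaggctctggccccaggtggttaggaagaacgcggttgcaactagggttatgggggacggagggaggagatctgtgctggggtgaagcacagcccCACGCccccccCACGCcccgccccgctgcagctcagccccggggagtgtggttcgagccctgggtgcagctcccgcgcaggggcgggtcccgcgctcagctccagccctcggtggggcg

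Cyp1a1 held 1 core, 54 bases before the start, and Htatip2 held 2, at 119 and 108 bases before the start on the other strand. A second RefSeq start of Htatip2 had no core in its window. The windows of Cyp1a2 and Slc46a3, which were also called, held none, which says only that these letters are not in these 250 bases. Cyp1a1 and Cyp1a2 are neighbours on chromosome 9 that point away from each other, and elements between them and further upstream were not searched. None of these 4 windows held the longer motif. Over the AHR battery, 9 of 16 genes with a window held the core.

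Among the other genes known as AHR targets, none was called. The AHR battery list has 20 genes, of which 18 had enough counts to be tested and Aldh3a1 (0 to 0.0679 CPM) and Ahrr (0 to 0.504 CPM) had not. It was chosen with results of these data known, so its direction is no independent evidence. The 5 called genes are all members, 15 of the 18 had a positive log2 change, and the list's median was 0.56. Without TCDD replicate 3, 15 of 19 tested members had a positive log2 change and the median was 0.41. Pmm1, a phosphomannomutase, came nearest, with 12.5, 10.3 and 9.08 CPM in TCDD livers, against 3.26, 4.13 and 4.49 CPM in vehicle livers. Its groups did not overlap, and its log2 change was 1.42 ± 0.34 (SE; adjusted p = 0.199, edgeR). It passed the threshold when the fit used the 18 BXD libraries alone (adjusted p = 0.0365) and with DESeq2 on all 84 (adjusted p = 0.0394).

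Of the conjugating and redox genes of the battery none was called, and those given here had an adjusted p of 1. Ugt1a6a, a UDP-glucuronosyltransferase, had 54.6, 39.9 and 47.0 CPM with TCDD, against 35.3, 30.1 and 36.4 CPM with vehicle, a log2 change of 0.48 ± 0.18 (SE). Its neighbour Ugt1a6b had a log2 change of 0.61 ± 0.29, but Ugt1a genes share exons, and how the authors' counting split such reads is not given in the sources used here. Nfe2l2, the gene of the redox regulator NRF2, had 72.2, 61.7 and 55.5 CPM with TCDD, against 41.6, 50.2 and 41.6 CPM with vehicle, without overlap (log2 0.51 ± 0.21, SE). Nqo1, the quinone reductase that both AHR and NRF2 are known to induce, had 11.0, 12.3 and 13.9 CPM with TCDD, against 11.2, 7.91 and 7.88 CPM with vehicle, and its groups overlapped. Ugdh, which makes the UDP-glucuronate used by those transferases, was high in TCDD replicates 1 and 2 (170 and 160.6 CPM) but not in replicate 3 (89.7 CPM), against 104, 107 and 103 CPM in vehicle livers. Selenbp1, a selenium-binding protein, had 292, 235 and 411 CPM with TCDD, against 234.2, 209.9 and 234.2 CPM with vehicle (log2 0.49 ± 0.25, SE). Without TCDD replicate 3 its log2 change was 0.16, and Selenbp2 is a near-identical copy.

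The remaining members, among them feedback and extrahepatic targets, had no call either. Tiparp, an ADP-ribosyltransferase that is known to restrain AHR, had 8.82, 6.18 and 3.47 CPM with TCDD, against 6.44, 4.40 and 8.91 CPM with vehicle. Cyp1b1, the third member of the family, had 0.596, 0.951 and 0.693 CPM with TCDD, against 0.796, 0.206 and 0.364 CPM with vehicle, so a difference was not detectable at this depth. Xdh, which makes urate, had 217, 172 and 249 CPM with TCDD, against 190, 202 and 164 CPM with vehicle, a log2 change of 0.22 ± 0.25 (SE). Without TCDD replicate 3 that change was 0.0099. Lrat, the retinol esterifying enzyme of stellate cells, had a log2 change of -0.09 ± 0.54 (SE). Gsta1 had at most 0.945 CPM in any library. Ugt1a7c was the member lying lower in all 3 TCDD libraries (0.298, 0.340 and 0.126 CPM) than in all vehicle libraries (0.362, 0.688 and 0.546 CPM), at counts too low for its log2 change of -1.05 ± 0.95 (SE) to be told from 0.

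The receptor's own machinery showed no call among 9 genes tested, with a median log2 change of -0.11. Ahr itself had 30.7, 28.2 and 26.2 CPM in TCDD livers, against 28.7, 27.2 and 39.8 CPM in vehicle livers, a log2 change of -0.16 ± 0.33 (SE), and the groups overlapped. Its dimer partner Arnt had 38.2, 40.8 and 37.6 CPM with TCDD, against 45.5, 38.6 and 42.6 CPM with vehicle. The log2 changes of the chaperone genes were -0.12 ± 0.16 for Hsp90ab1 and -0.04 ± 0.54 for Hsp90aa1, and that of the co-chaperone gene Ptges3, which encodes p23, was -0.09 ± 0.22 (SE). The coactivator genes Ncoa1 and Ncoa2 had log2 changes of -0.16 ± 0.20 and 0.01 ± 0.26 (SE). Hsp90aa1 was low in TCDD replicate 3 alone, at 13.05 CPM, against 53.6 and 40.2 CPM in the other TCDD libraries and 29.2 to 44.4 CPM in vehicle livers. Arntl, the clock relative of ARNT, had a log2 change of -1.06 ± 0.78 (SE) with overlapping groups.

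Among the 14 strains, BXD100/RwwJ was one of 5 in which Cyp1a1 rose by over 9 on the log2 scale. Its Cyp1a1 mean of 1338 ± 136.7 CPM with TCDD ranked 3 of 14, after BXD91/2RwwJ (1679 ± 212 CPM) and CBA/J (1461 ± 175.7 CPM; SD, n = 3 each). That rank rests on a C57BL6/J mean lowered by 1 library, since C57BL6/J TCDD replicates 1 and 2 had 1604 and 1394 CPM and the library labelled TCDD replicate 3 had 1.21 CPM. Reads with more than 1 alignment made up 3.74% to 4.35% in the libraries of the BXD lines and 7.80% to 10.2% in those of the other strains. The part of this difference in CPM ranks over strains, here and below, was not tested. Against the mean effect of the other 13 strains, the Cyp1a1 effect was larger by 5.46 ± 0.99 on the log2 scale (SE; adjusted p = 0.0156, edgeR interaction contrast), and Cyp1a1 was the 1 gene called of all tested (0.00617%). The mean over the other strains includes the C57BL6/J library labelled TCDD replicate 3. Without it and 2 other libraries that stand apart (1 of BXD-40/TyJ, vehicle replicate 1, and 1 of A/J, vehicle replicate 2), 3 genes were called, Slc46a3 at 1.12 and Cyp1a2 at 1.77 being added. Leaving out any 1 of the 3 BXD100/RwwJ vehicle libraries ended the Cyp1a1 call (adjusted p = 0.204 to 0.569).

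The 5 genes were called in different numbers of strains, which is a count and no test of a difference between strains. Cyp1a2 was called in 8 strains, Cyp1a1 in 6, Htatip2 in 5, Nptx1 in 4 and Slc46a3 in BXD100/RwwJ and BXD91/2RwwJ. Slc46a3 was also higher without overlap, though not called, in A/J, BALB/CJ, C3HeB/FeJ, FVB/NJ and CBA/J. In CBA/J it had 182, 196 and 204 CPM in TCDD livers, against 111, 86.4 and 95.2 CPM in vehicle livers. In C57BL6/J it had 162 and 173 CPM in TCDD replicates 1 and 2 and 21.4 CPM in the library labelled replicate 3, against 58.5, 62.8 and 68.2 CPM in vehicle livers. Slc46a3 had its highest TCDD mean of all strains here, 209 ± 12.6 CPM, next to 194 ± 11.3 CPM in CBA/J, whose vehicle livers were higher (97.5 ± 12.4 CPM) than those of BXD100/RwwJ (69.7 ± 3.85 CPM; SD, n = 3 each). Its vehicle mean ranked 10 of 14 in BXD100/RwwJ. Htatip2 ranked 2 of 14 in both groups, with 155 ± 23.9 CPM in TCDD livers and 60.6 ± 2.53 CPM in vehicle livers (SD, n = 3 each).

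**Figure D3:**
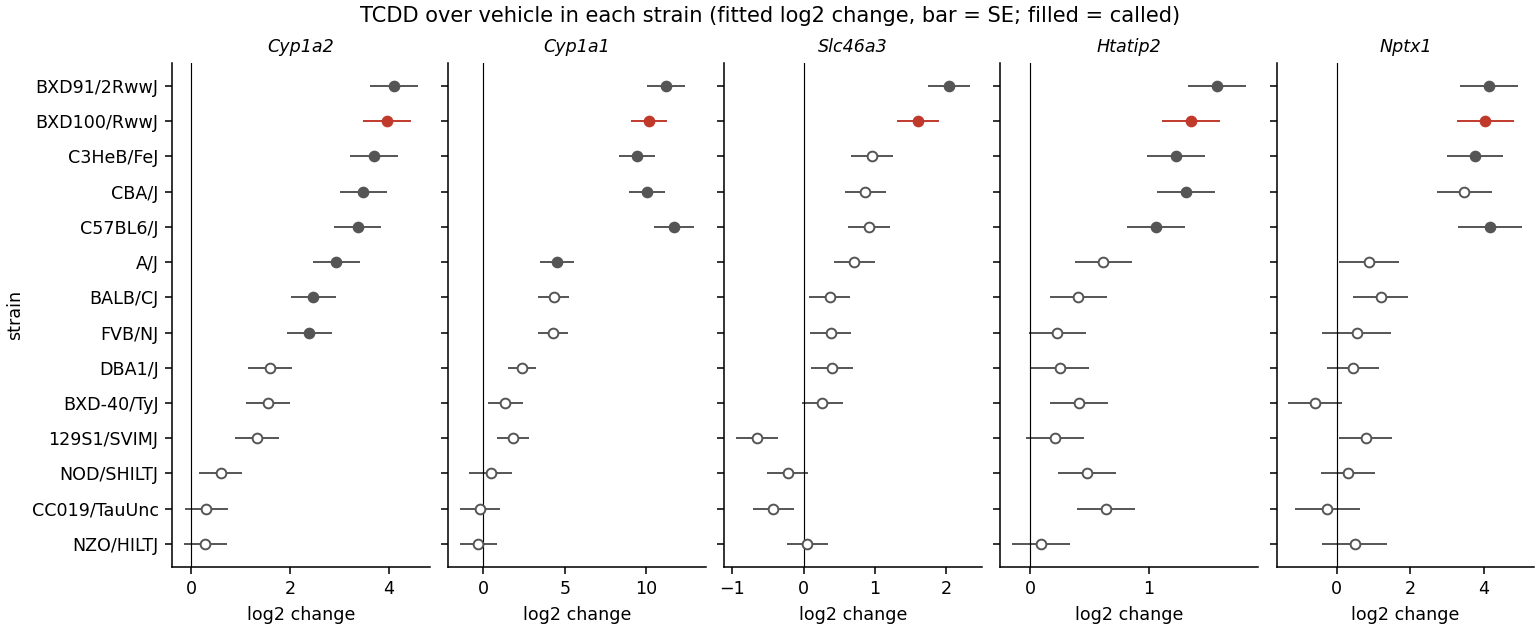
Fitted log2 change of TCDD over vehicle (horizontal axes, bars are SE) of the 5 called genes in each of 14 strains (rows, ordered by Cyp1a2), with BXD100/RwwJ in red and filled points for calls within a strain. BXD100/RwwJ stands with BXD91/2RwwJ, C3HeB/FeJ, CBA/J and C57BL6/J at the upper end of all 5 panels.

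For none of the 5 genes was a difference from the sister line BXD91/2RwwJ called. The difference between the 2 lines' log2 changes, BXD100/RwwJ minus BXD91/2RwwJ, was -1.06 ± 1.36 for Cyp1a1, -0.13 ± 0.61 for Cyp1a2, -0.22 ± 0.34 for Htatip2, -0.44 ± 0.41 for Slc46a3 and -0.10 ± 1.02 for Nptx1 (SE). A p that misses the threshold does not show that the lines respond alike. Of 9 genes called in BXD91/2RwwJ, all higher there, 5 were called in BXD100/RwwJ, against 0.0309% of all genes tested. The same sign was seen for 8 of them, where 50.8% of all genes tested had a positive change. Cyfip2, a component of the WAVE actin regulatory complex, had 5.96, 5.16 and 7.00 CPM in BXD100/RwwJ TCDD livers, against 2.39, 2.41 and 3.09 CPM in vehicle livers (log2 1.21 ± 0.34, SE; not called). Cyb5a, the cytochrome b5 that donates electrons to P450 enzymes, had 1153, 1220 and 965 CPM with TCDD, against 783, 779 and 752 CPM with vehicle (log2 0.53 ± 0.16, SE; not called). Fbxw9, an F-box protein, had a log2 change of 0.37 ± 0.16 (SE; not called).

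The ninth gene, the predicted gene Gm17494, was the 1 call between the 2 lines (0.00617% of genes tested), at -5.43 ± 0.99 (SE; adjusted p = 0.0158, edgeR). It had 1.91, 1.49 and 0.756 CPM in BXD100/RwwJ TCDD livers, against 3.69, 13.5 and 2.42 CPM in vehicle livers, and 42.2, 0.558 and 1.43 CPM in BXD91/2RwwJ TCDD livers, against 3.66, 0.294 and 1.09 CPM in vehicle livers. A single library is high in each line, vehicle replicate 2 in BXD100/RwwJ and TCDD replicate 1 in BXD91/2RwwJ. Without BXD100/RwwJ vehicle replicate 2 the difference was -4.35 and not called (adjusted p = 1), and leaving out any 1 of the 3 BXD100/RwwJ TCDD libraries also ended the call (adjusted p = 0.0657 to 0.19).

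The other sister line, BXD-40/TyJ, had little Cyp1a1 in both groups, and here the difference was called. Cyp1a1 averaged 1338 ± 136.7 CPM in BXD100/RwwJ TCDD livers and 1.20 ± 0.478 CPM in vehicle livers, and 2.08 ± 0.601 CPM in BXD-40/TyJ TCDD livers and 0.804 ± 0.274 CPM in vehicle livers (SD, n = 3 each). The effects differed by 8.79 ± 1.60 on the log2 scale (SE; adjusted p = 0.0155, edgeR), the 1 call of that contrast (0.00617%). That call was lost without BXD100/RwwJ vehicle replicate 2 (log2 8.59, adjusted p = 0.0595) and without vehicle replicate 3 (log2 8.69, adjusted p = 0.0562). Cyp1a2 differed by 2.41 ± 0.62 (adjusted p = 0.234), Nptx1 by 4.63 ± 1.05 (adjusted p = 0.15), Slc46a3 by 1.34 ± 0.41 (adjusted p = 0.355) and Htatip2 by 0.95 ± 0.34 (adjusted p = 0.49), all larger in BXD100/RwwJ. Without BXD-40/TyJ vehicle replicate 1 and the 2 other libraries that stand apart, Cyp1a2 was also called (2.46, adjusted p = 0.0489).

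Outside the AHR battery no gene of any list was called in BXD100/RwwJ, and the lists are described by their counts. The fatty acid synthesis and storage list had 14 positive and 14 negative changes among 28 genes tested and a median of -0.04. In it 4 genes had an unadjusted p below 0.05, all lower in TCDD livers, where 0.951% of all genes tested were lower at that p. Pnpla3, a lipid droplet lipase and target of the lipogenic factor SREBP-1c, had 27.5, 10.5 and 7.25 CPM in TCDD livers, against 123, 97.2 and 43.6 CPM in vehicle livers. Every TCDD library was below every vehicle library, and the log2 change was -2.58 ± 0.72 (SE; adjusted p = 1, edgeR).

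Fasn, fatty acid synthase, had 641, 422 and 681 CPM with TCDD, against 1664, 1321 and 801 CPM with vehicle (log2 -1.11 ± 0.43, SE). Acly, which supplies its acetyl-CoA, had 242, 197 and 277 CPM with TCDD, against 568, 409 and 319 CPM with vehicle (log2 -0.84 ± 0.36, SE). Srebf1, the gene of SREBP-1 itself, had 349, 259 and 228 CPM with TCDD, against 404, 429 and 419 CPM with vehicle (log2 -0.58 ± 0.29, SE). In these 3 the groups did not overlap, and vehicle replicate 3 was the vehicle library closest to the TCDD libraries for Fasn and Acly.

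**Figure D4:**
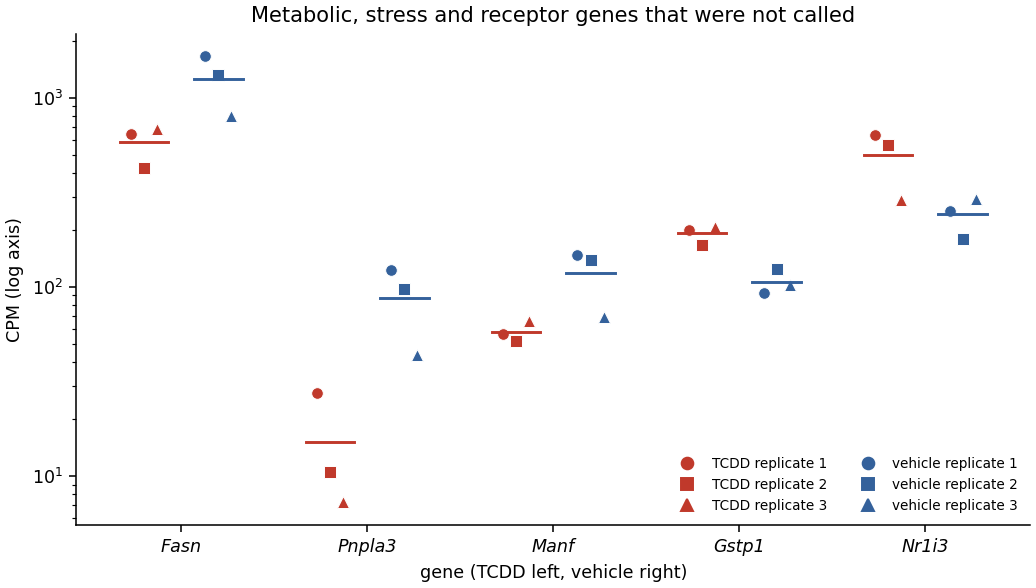
CPM (log axis) in each BXD100/RwwJ library of 5 genes that were not called, TCDD in red on the left and vehicle in blue on the right, with a bar at the group mean. Fasn, Pnpla3 and Manf are lower in every TCDD library and Gstp1 higher in every one, while Nr1i3 overlaps through TCDD replicate 3.

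Cholesterol synthesis genes were mostly lower, with 2 of 23 changes positive, a median of -0.38 and 9 genes lying lower in all TCDD libraries. Over all genes tested 50.8% of changes were positive, the median was 0.0042 and 4.5% of genes lay lower in all TCDD libraries. Sc5d, a late sterol desaturase, had 241, 249 and 116 CPM with TCDD, against 324, 290 and 331 CPM with vehicle (log2 -0.65 ± 0.26, SE; adjusted p = 1). Fatty acid oxidation genes and other PPARA targets lay the other way, with 26 of 26 changes positive and a median of 0.26, yet none had an unadjusted p below 0.05 and 5 were higher without overlap, as were 3.27% of all genes tested. Hadhb, a subunit of the mitochondrial trifunctional protein and the member with the smallest p, had 43.1, 31.8 and 21.4 CPM with TCDD, against 20.5, 24.1 and 26.9 CPM with vehicle, and the groups overlapped. Without TCDD replicate 3, 23 of the 26 were positive and none of the 23 cholesterol genes was.

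In the ER stress, interferon response and acute phase lists most log2 changes were negative. The ER stress list had 2 of 19 positive changes, a median of -0.36 and 5 genes with an unadjusted p below 0.05, all lower, against 50.8% positive changes and 0.951% of genes lower at that p among all genes tested. Manf, a secreted factor induced by ER stress, had 55.99, 51.6 and 65.8 CPM with TCDD, against 147.3, 139.04 and 69.4 CPM with vehicle (log2 -1.02 ± 0.43, SE), and Hspa5, the main ER chaperone BiP, had 434, 427 and 374 CPM with TCDD, against 898, 798 and 504 CPM with vehicle (log2 -0.83 ± 0.40, SE). In both, vehicle replicate 3 was again nearest to the TCDD libraries. The interferon response list had 3 of 26 positive changes and a median of -0.36, and Cxcl10, an interferon-induced chemokine, had 2.32, 2.04 and 1.95 CPM with TCDD, against 6.37, 3.30 and 4.43 CPM with vehicle (log2 -1.15 ± 0.54, SE). Acute phase genes had 3 of 31 positive changes and a median of -0.19. Summed CPM overlapped between TCDD and vehicle livers for the interferon list (617 to 1026.5 against 950 to 1251) and the acute phase list (63498 to 73041 against 69299 to 83470). For the ER stress list they did not overlap (2710 to 3283 against 3648.5 to 4532).

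**Figure D5:**
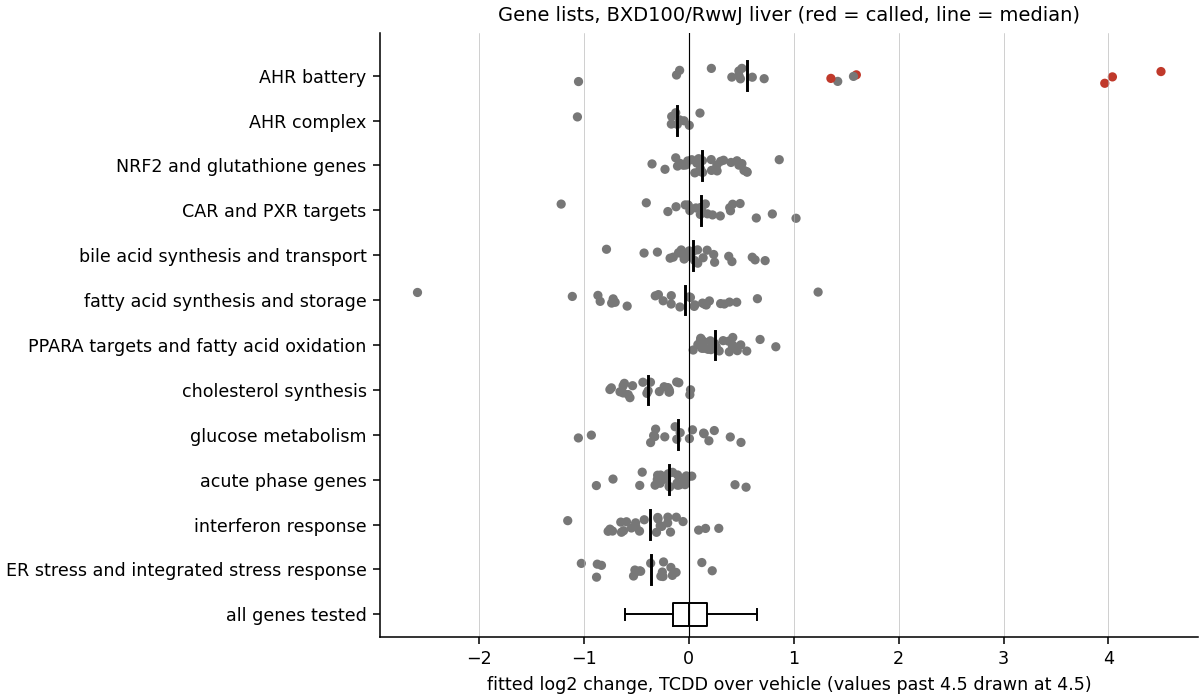
Fitted log2 change of TCDD over vehicle (horizontal axis) of each tested member of 12 gene lists (rows), with called genes in red and the median as a black line, and below them all genes tested as a box (quartiles) with whiskers from the 5th to the 95th percentile. Cyp1a1 lies past the axis limit and is drawn at its edge; called genes are in the AHR battery row alone.

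Xenobiotic pathways next to AHR had no call. Gstp1, a pi-class glutathione transferase, had 200, 166 and 208 CPM with TCDD, against 93.2, 123.8 and 102 CPM with vehicle, without overlap (log2 0.86 ± 0.26, SE; adjusted p = 1), and Gstp2 is a near-identical copy. It was called in the fit of the 18 BXD libraries alone (adjusted p = 0.0425). Among 31 NRF2 and glutathione genes 23 changes were positive with a median of 0.13. Nr1i3, which encodes the xenobiotic receptor CAR, had 633 and 565 CPM in TCDD replicates 1 and 2 and 287 CPM in replicate 3, against 252, 179 and 292 CPM in vehicle livers (log2 1.02 ± 0.31, SE; adjusted p = 1). Of 24 CAR and PXR targets 17 had a positive log2 change, and the median was 0.12. Abcg8, a subunit of the sterol transporter that exports cholesterol into bile, had 154.1, 138.5 and 188 CPM with TCDD, against 108, 91.2 and 120 CPM with vehicle (log2 0.61 ± 0.25, SE), in a bile acid list with 15 of 25 positive changes and a median of 0.04.

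In the remaining pathway lists, the gene with the smallest p had an adjusted p of 1 and medians lay between -0.17 and 0.13. Log2 changes were -0.32 ± 0.23 for Papss2 among conjugating enzymes, 0.34 ± 0.29 for Blvrb among heme genes, -0.36 ± 0.20 for Stra6l among retinoid genes and -0.63 ± 0.38 for the clock repressor Nfil3. They were -0.74 ± 0.42 for Hsph1 among heat shock genes, -0.997 ± 0.62 for Trp53inp1 among p53 targets, -0.72 ± 0.44 for Ccnd1 among cell cycle genes and -1.10 ± 0.56 for Selenbp2 among sex-biased genes (SE).

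Cell type lists had no call either. Pericentral and periportal hepatocyte markers together had 10 of 16 positive changes, against 50.8% over all genes tested, and a median of 0.09. Without overlap, 4 of them were higher and 2 lower, against 3.27% and 4.5% of all genes tested. The member with the smallest p, the periportal cadherin Cdh1, had 16.02, 22.8 and 21.5 CPM with TCDD, against 51.2, 47.3 and 25.4 CPM with vehicle (log2 -1.02 ± 0.39, SE; adjusted p = 1). Sinusoidal endothelium markers had 6 of 10 positive changes with all libraries and 0 of 10 without TCDD replicate 3, with medians of 0.02 and -0.73. Stellate cell and matrix genes had 7 of 13 positive changes with all libraries and 4 of 14 without it. Reln, a stellate cell glycoprotein, had 169 CPM in TCDD replicate 3, against 46.6 and 52.6 CPM in the other TCDD libraries and 60.8, 54.5 and 44.7 CPM in vehicle livers. Kupffer cell markers summed to 763, 559 and 1059 CPM with TCDD, against 1023, 780 and 712 CPM with vehicle, and 4 of 12 had a positive change with all libraries and 0 of 12 without TCDD replicate 3 (medians -0.07 and -0.46).

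The authors' deposited table calls 14 genes in BXD100/RwwJ, 10 higher and 4 lower. DESeq2 on the counts of all 84 libraries called the same 14 of 26357 genes with an adjusted p (0.0531%). The 5 genes called by edgeR are among them, with log2 fold changes in the authors' deposited table of 10.15 for Cyp1a1, 3.98 for Cyp1a2, 4.06 for Nptx1, 1.61 for Slc46a3 and 1.37 for Htatip2, and of 1.43 for Pmm1, which is also among the 14. A further 6 of the 14 have at most 4 counts in every BXD100/RwwJ library. Ctrb1, a pancreatic protease gene, has a log2 fold change of 37.5 in the authors' deposited table on 1 count, in TCDD replicate 3, and Hspb7 one of 15.2 on 1 count, in TCDD replicate 2. Dmbt1 had 0, 0 and 0 counts with TCDD, against 42, 3 and 0 with vehicle. The gene ENSMUSG00000089681, which the files do not pair with a symbol, had 78, 40 and 12 counts with TCDD, against 10, 11591 and 34 with vehicle, so that 1 library, the same vehicle replicate 2 that was high in Gm17494, sets its fold change.

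A DESeq2 fit of the 6 BXD100/RwwJ libraries alone, added after seeing the data, called 31 of 12359 genes (0.251%), 14 higher and 17 lower. All 31 were without overlap between the groups, where 3.27% of the 16195 genes tested in edgeR were higher and 4.5% lower without overlap. The same 6 libraries chose the 31 genes, so their separation is no independent evidence. The 5 edgeR calls are among them and 26 are not edgeR calls. Higher with TCDD in that fit, besides the 5, Pmm1 and Gstp1, were Pcp4l1, Tuba8, Abhd6, Acot1, Ier3 and the pair Hectd2 and Hectd2os, which lie on opposite strands and cannot be told apart by a kit that does not mark strand. Lower with TCDD were Pnpla3, Pnpla5 and Fasn of lipid synthesis and storage, the interferon-inducible genes Igtp, Zbp1, Gbp11 and Gm12250, the stress genes Ddit4 and Trp53inp1, and 8 others. Ddit4, an inhibitor of mTORC1 signalling, had 17.5, 15.4 and 12.5 CPM with TCDD, against 57.1, 39.3 and 37.5 CPM with vehicle (log2 -1.55 in that fit, adjusted p = 5.7e-08, and -1.56 ± 0.97 with an unadjusted p of 0.11 in the edgeR fit of 84 libraries). The 2 fits take the spread from different libraries, and edgeR on the same 6 libraries called 5 genes.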

How the data were processed

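Liver RNA was sequenced in 84 libraries, for which the labels' protocols name the NEBNext Ultra RNA kit. Per the submitters' processing notes, the authors used FastQC 0.11.5, Trimmomatic 0.38, Bowtie2 2.3.2.25, HTSeq 0.6.1 and DESeq2, given as version 3.8, with build mm9. The deposited files hold whole-number counts per gene, not normalized, for each library. For every strain the authors' deposited table gives a log2 fold change with a p-value and an adjusted p-value, per the file headers. In the 6 BXD100/RwwJ files reads that HTSeq assigned to no feature made up 50.4% to 52.6%. Where in the genome those reads lie was not analysed. Reads with more than 1 alignment made up 3.83% to 4.15% and ambiguous reads 0.730% to 0.930%. These entries were left out of library sizes and tests. Of 37310 gene IDs, 32620 were named from the reference annotation and 10 from the authors' table.

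Counts of all 84 libraries were fitted in edgeR 4.0.16 (R 4.3.3) with TMM scaling (0.934 to 1.09 in the 6 libraries), filterByExpr (16195 genes left) and the quasi-likelihood fit with robust estimation, in which each of 28 groups had its own mean and 56 residual degrees of freedom remained. Contrasts were TCDD minus vehicle within BXD100/RwwJ and its difference from the mean of the other 13 strains, from BXD91/2RwwJ and from BXD-40/TyJ, with Benjamini-Hochberg adjustment over all genes and calls below 0.05. The fit was tested on simulated data. CPM divide counts by the gene counts of the library without TMM factors, and SE are those of the fitted log2 change. Between libraries of 1 group, chi-square over genes with at least 10 counts was 18.7 to 71.9 per degree of freedom, where 1 is counting error. The libraries thus differed by more than counting error, which does not tell whether any of them came from the same mouse.

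The comparison, the gene lists and the rule for named genes were chosen with earlier results of these data known. The rule names the 15 largest rises and falls among calls of at least 1 CPM, every gene of the AHR battery and AHR complex lists, the called members of each other list or else the one with the smallest p, and the 8 smallest p-values among calls of each contrast between strains. Genes named beside these (further members of the lists with an unadjusted p below 0.05, the calls of DESeq2 1.42.0 and of the authors, and genes called in BXD91/2RwwJ) were chosen after their values were seen. Some genes that the rule names are not reported here. Alternatives were DESeq2, its size factors within edgeR (median-ratio), all genes without filterByExpr, no robust estimation, fewer libraries and leaving out each BXD100/RwwJ library. Replicate numbers were given in accession order and are only names.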

Additional observations from a re-analysis of the deposited data

Results flagged for a closer look

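The Cyp1a1 effect in BXD100/RwwJ differed from the mean effect of the other 13 strains by a test of the difference itself. It was larger by 5.46 on the log2 scale, with a mean of 1338 ± 136.7 CPM in TCDD livers and 1.20 ± 0.478 CPM in vehicle livers (SD, n = 3 each). The other 13 strains include BXD91/2RwwJ, CBA/J and C3HeB/FeJ, with Cyp1a1 log2 changes of 11.2, 10.0 and 9.41. From BXD91/2RwwJ the effect differed by -1.06 ± 1.36 (SE), which was not called. The Cyp1a1 effect also differed from that in BXD-40/TyJ, by 8.79 on the log2 scale, where TCDD livers averaged 2.08 ± 0.601 CPM and vehicle livers 0.804 ± 0.274 CPM (SD, n = 3 each). The call against the other 13 strains was lost on leaving out any 1 BXD100/RwwJ vehicle library (adjusted p = 0.204 to 0.569), and that against BXD-40/TyJ on leaving out vehicle replicate 2 or vehicle replicate 3 (adjusted p = 0.0595 and 0.0562). Within BXD100/RwwJ all 3 TCDD libraries lay above all 3 vehicle libraries, which bears on the effect in this line and not on the differences between strains.

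The effect on the predicted gene Gm17494 differed between BXD100/RwwJ and BXD91/2RwwJ by -5.43 on the log2 scale. The difference rests on BXD100/RwwJ vehicle replicate 2 at 13.5 CPM and BXD91/2RwwJ TCDD replicate 1 at 42.2 CPM, while the other 10 libraries of the 2 lines had at most 3.69 CPM. The call was lost without BXD100/RwwJ vehicle replicate 2 or any 1 of its 3 TCDD libraries.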

How the results depend on the processing

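The BXD100/RwwJ TCDD effect gave 5 calls, and again 5 with size factors by median ratio, without a filter on low counts, without robust estimation, without the 3 libraries of other strains that stand apart, and with the 6 BXD100/RwwJ libraries alone. The fit of the 18 BXD libraries gave 8 (adding Pmm1, Pcp4l1 and Gstp1), DESeq2 on 84 libraries 14 and DESeq2 on the 6 libraries, an alternative chosen after seeing the data, 31. Leaving out 1 BXD100/RwwJ library at a time gave 2 to 5 calls, and 2, Cyp1a1 and Cyp1a2, without vehicle replicate 2 or vehicle replicate 3. Cyp1a1 and Cyp1a2 were called in 14 of 14 alternatives, Htatip2 in 12, Slc46a3 in 11 and Nptx1 in 10. Without TCDD replicate 3 there were 4 calls, 3 higher (Cyp1a1, Cyp1a2 and Htatip2) and 1 lower.

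Against the mean of the other 13 strains there was 1 call, 3 without the libraries that stand apart, 8 with DESeq2, and 0 to 2 on leaving out 1 BXD100/RwwJ library. Against BXD91/2RwwJ there was 1 call, 0 with the 18 BXD libraries, 6 with DESeq2, and 0 to 1 on leaving out a library. Against BXD-40/TyJ there was 1 call, 3 without the libraries that stand apart, 3 with the 18 BXD libraries, 14 with DESeq2, and 0 to 1 on leaving out a library. At an unadjusted p below 0.05 the 3 contrasts held 334, 271 and 1242 genes in edgeR. The cause of these changes was not tested.

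Signs turned on leaving out a library for genes near 0 or at low counts, and also for Reln and Stab2. With all libraries these had log2 changes of 0.81 and 0.54, and TCDD replicate 3 was the highest library in both (169 and 16.9 CPM). On leaving out a library the log2 changes ranged over -0.40 to 0.16 for Lrat, -0.39 to 0.15 for Tiparp, -1.69 to 3.20 for Gsta1, -0.042 to 0.033 for Ncoa2, -0.27 to 0.015 for Ahr, -0.39 to 0.32 for Hsp90aa1, -0.21 to 0.0028 for Hsp90ab1, -0.21 to 0.11 for Ptges3, -0.16 to 1.15 for Reln, -0.011 to 0.82 for Stab2 and -2.36 to 0.21 for Elane. Against BXD91/2RwwJ they ranged over -0.69 to 0.22 for Nptx1 and -0.25 to 0.032 for Cyp1a2. No paired analysis was possible because the labels number no replicates, and numbers given in accession order pair no libraries. Depth limits the genes with few counts, such as Cyp1b1, Gsta1 and Ugt1a7c.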

Other observations

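The gene ENSMUSG00000089681, which the files do not pair with a symbol, had levels that split libraries of a single line. In BXD100/RwwJ it stood at 4.65, 2.72 and 0.756 CPM in TCDD livers, against 0.723, 797 and 2.06 CPM in vehicle livers. In BXD91/2RwwJ it stood at 1047, 2.67 and 1.68 CPM in TCDD livers, against 1.64, 846 and 3.51 CPM in vehicle livers. Gm17494 was highest in the same BXD100/RwwJ library and in the same BXD91/2RwwJ TCDD library. In BXD91/2RwwJ vehicle replicate 2, the library with 846 CPM of ENSMUSG00000089681, Gm17494 was not high, at 0.294 CPM. Both genes were singled out after their values were seen.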
